A study of Mus musculus with 8 samples.

Results

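The genes described here are 35 genes of protein folding and quality control in the endoplasmic reticulum (ER), together with the sensors and transcription factors of the unfolded protein response. They were chosen by name, as chaperones, disulfide enzymes, degradation factors, translocon subunits and stress regulators. Measured values were not used to pick them, but earlier results of these data were known when they were chosen. All 35 were found on the array, each read by its brightest probe, and all 35 were among the 19331 features (1 probe per gene, or a probe without a gene name) that were tested. Of these members, 3 carry other names on the array: Manf is listed as Armet, Ppp1r15a as Myd116 and Dnajc3 as Dnajc3a. Ero1l and Ero1lb are now called Ero1a and Ero1b.

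The samples were whole pancreatic epithelia, dorsal and ventral together, microdissected from mouse embryos at e15.5. The mutant group carried Sox9 fl/fl and Rosa26-CreER, and the wild-type group were littermates that carried Rosa26-CreER; both came from a cross of Sox9-flox mice of mixed FVB/N, C57Bl/6J and CD1 background with Rosa26-CreER mice on C57Bl/6J. Dams of both groups received 6 mg of tamoxifen per 40 g in corn oil at e12.5, so both groups carried the recombinase and saw the drug, and tissue was taken 3 days later. Each RNA sample pooled 4 pancreata, and each genotype had 4 pools, 1 array each, so the spread given below is one between pools and not between embryos. The Rosa26 locus is active in nearly all cell types, so recombination was not directed to the epithelium alone, and the labels do not say how complete it was. The SOX9 protein is a transcription factor that marks progenitors and duct cells in the pancreas, and the comparison asks what its loss changes while endocrine, acinar and duct cells form.

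Proteins bound for secretion enter the ER through the Sec61 channel and are folded there by the Hsp70 chaperone BiP with its cochaperones, by the Hsp90 homologue GRP94, by the lectin chaperones calnexin and calreticulin, and by disulfide isomerases that ERO1 oxidases keep oxidised. Proteins that fail to fold are pulled back into the cytosol and degraded. When unfolded protein accumulates, the sensors IRE1, PERK and ATF6 signal to the nucleus: IRE1 splices the mRNA of XBP1, PERK phosphorylates eIF2α and so favours translation of ATF4, and ATF6 is cleaved to a transcription factor. ATF6 and XBP1 raise chaperone and degradation genes, while ATF4 and CHOP raise amino acid and feedback genes. Acinar cells of the pancreas, which make digestive enzymes in bulk, are among the cells richest in ER.

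Some of these genes share a promoter element. The choice by name did not use the element, but it took genes of the response in which ATF6 acts. How often the element occurs in the members is therefore not independent of that choice. The element is the ER stress element, CCAAT, then 9 bases of any kind, then CCACG, at which NF-Y and ATF6 bind. It was searched on both strands in windows from 250 bases before to 50 bases after each transcription start, from RefSeq on GRCm38.p6, in which 30 of the 35 members had an entry (Atf6, Derl1, Hyou1, Manf and Sec61a1 did not). The element was found in 10 of these 30 members, and in 39 of all 32851 promoters of the table (0.119%), which belong to 37 of 27025 genes (0.137%) and include those 10. The matches are printed because they group the members in the comparison by promoter further on. Each is given 5′ to 3′ on the strand of its gene with 6 bases on either side, the capitals marking the element, which starts with CGTGG where it lies in reverse orientation.
Hspa5: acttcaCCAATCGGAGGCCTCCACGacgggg
Hsp90b1, distal: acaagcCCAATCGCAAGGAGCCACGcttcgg
Hsp90b1, proximal: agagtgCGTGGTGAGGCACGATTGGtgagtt
Calr: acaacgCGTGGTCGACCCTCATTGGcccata
Canx: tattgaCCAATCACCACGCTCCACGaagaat
Creld2: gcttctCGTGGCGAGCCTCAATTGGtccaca
Dnajc3: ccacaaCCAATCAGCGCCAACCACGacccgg
Pdia6: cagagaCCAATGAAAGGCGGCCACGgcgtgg
Ero1b: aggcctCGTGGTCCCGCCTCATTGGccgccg
Syvn1: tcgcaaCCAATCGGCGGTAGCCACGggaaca
Derl3: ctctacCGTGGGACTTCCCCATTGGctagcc

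On GRCm38.p6 these stretches lie at chr2:34772019-34772049 on the plus strand for Hspa5, at chr10:86705632-86705662 and chr10:86705527-86705557 on the minus strand for Hsp90b1, at chr8:84847069-84847099 on the minus strand for Calr and at chr11:50325794-50325824 on the minus strand for Canx. Those of Creld2 (chr15:88819514-88819544), Dnajc3 (chr14:118937821-118937851), Pdia6 (chr12:17266485-17266515), Ero1b (chr13:12565676-12565706), Syvn1 (chr19:6046526-6046556) and Derl3 (chr10:75893236-75893266) are on the plus strand. Counted from the transcription start, the elements begin between position -212, in Hsp90b1, and position -44, in Syvn1. A second form, ER stress element II (ATTGG, 1 base, CCACG), was found in 2 members and in 12 promoters of the table (0.0365%).
Dnajb11: gcggcgATTGGCCCACGcctggc
Herpud1: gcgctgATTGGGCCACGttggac

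The stretch of Dnajb11 lies at chr16:22857846-22857868 and that of Herpud1 at chr8:94386371-94386393, both on the plus strand. The core of the amino acid response element, TGATGNAA, to which ATF4 dimers bind, was found in 3 members and in 1304 promoters (3.97%). The 3 are the ones with a match printed here.
Asns: gccacaTGATGAAActtccc
Trib3: tcaggtTTACATCAgccggg
Herpud1: ggcgggTTGCATCAgcccgc

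These lie at chr6:7693219-7693238 on the minus strand, chr2:152344033-152344052 on the minus strand and chr8:94386311-94386330 on the plus strand. The element TGACGTGG, which XBP1 and ATF6 bind, was found in 0 members and in 222 promoters (0.676%). A match describes letters in the window and shows no binding.

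The data are one-colour Agilent arrays, read as processed spot intensity. On 7 arrays the median processed signal was 199.99 to 252 scanner units, the share of probes well above background was 69.0% to 73.4%, and the median correlation with arrays of the same genotype across features was 0.994 to 0.996. The array of mutant pool 2 stood apart, with a median signal of 735, 85.9% of probes well above background, a negative control signal of 282 against 69.8 to 87.4 on the others, and a correlation of 0.923. The main counts of called members are given with and without it, and other values are from all 8 arrays unless stated. All wild-type arrays were on one slide and all mutant arrays on another, so genotype and slide cannot be told apart. Sox9 checks the labels: its main probe read 1.77, 1.90, 1.87 and 1.77 in the wild-type pools and 0.59, 0.40, 0.52 and 0.47 in the mutant pools, on a log2 scale with each array's 75th percentile at 0, which is the scale of all levels given here. It fell by 1.33 on that scale, to 39.8% of the wild-type level (exact two-sided permutation p = 0.0286, the smallest that 4 against 4 arrays can give; adjusted p = 0.000796 with limma). Of the other Sox9 probes, A_52_P577484 fell to 17.6% of wild type and the dim A_51_P451606 was at 0.63 (adjusted p = 0.342).

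Across the 35 genes the test called 1 lower, Calr, and 1 higher, Atf6, in Sox9 mutant epithelium, at an adjusted p under 0.05 over all features (limma, Benjamini-Hochberg). Over all 19331 features 3.46% were called lower and 2.12% higher. Most members lay below their wild-type level without passing: 27 had a log2 fold change under 0, and the median of the 35 was -0.27, where the median of all features was -0.0050. The members' median was below that of all features under every scaling tried except normexp background correction with mutant pool 2 left out (-0.037 against -0.13), where the correction failed on 1 wild-type array. Before adjustment, 15 members and 4933 features had p under 0.05. All 35 were well above background on all 8 arrays, and none was saturated. In 14 members the highest mutant pool was below the lowest wild-type pool, and in 1 the lowest mutant pool was above the highest wild-type pool, against 15.2% and 10.6% of all features. Every difference was under 2-fold.

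**Figure D1:**
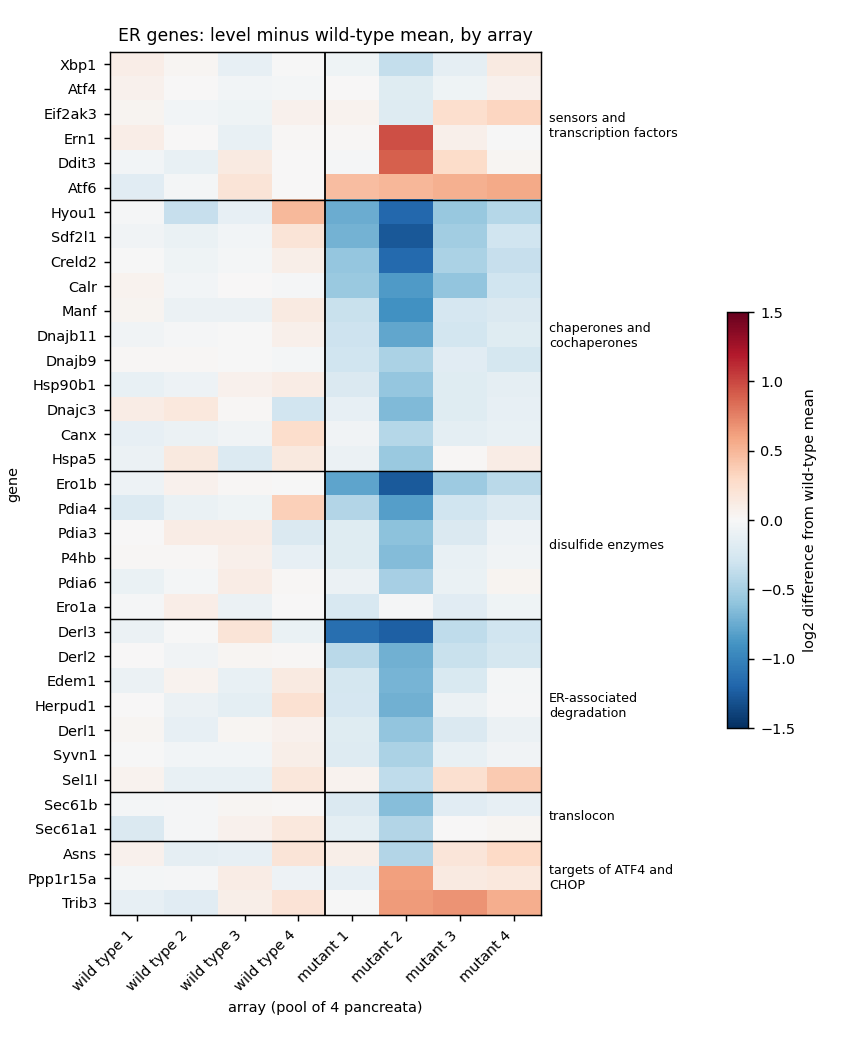
Each row is a gene, grouped by role, and each column an array. Colour gives the log2 level minus the mean of the 4 wild-type arrays for that gene (blue lower, red higher). Most chaperones, disulfide enzymes and degradation factors are blue in mutant arrays and darkest in mutant 2, with exceptions such as Sel1l, above its wild-type mean in mutants 1, 3 and 4, and Ero1a, least low in mutant 2. Atf6 is red in all 4 mutant arrays.

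The level of the members differed between the mutant pools. The median over the 35 genes of the difference from the wild-type mean was -0.19, -0.59, -0.17 and -0.066 in mutant pools 1 to 4, and -0.015, -0.033, -0.0081 and 0.069 in wild-type pools 1 to 4. In the members every mutant pool was thus below every wild-type pool, and mutant pool 2 was the lowest. The median over all features was -0.0045, -0.024, -0.039 and -0.040 in mutant pools 1 to 4. It was 0.0049, -0.018, -0.0010 and 0.021 in wild-type pools 1 to 4. In mutant pool 4 the members were thus at -0.066 beside -0.040 for all features. Without pool 2 the test called 7 members lower (Ero1b, Sdf2l1, Calr, Creld2, Derl2, Dnajb11 and Dnajb9) and Atf6 higher, where 10.6% of all features were called lower and 6.76% higher, and the median of the members was -0.15.

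Mutant pool 2 also read bright features low and dim features high. Among the 3515 features with a wild-type level of at least 2, the median difference from wild type was -0.34 in this pool and -0.05, -0.08 and -0.06 in mutant pools 1, 3 and 4. Among the 6992 features with a wild-type level below -2 it was 1.34 in pool 2. The 23 members with a wild-type level of at least 2 had medians of -0.22, -0.65, -0.19 and -0.11 in mutant pools 1 to 4, below those of all bright features on each array. Of these 23, 22 had a log2 fold change under 0, as had 81.7% of the bright features. In 11 of the 23 the genotypes did not overlap, with the mutant lower, against 28.3% of the bright features, 1 was called lower against 3.21%, and without pool 2 there were 5 called lower against 9.73%.

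**Figure D2:**
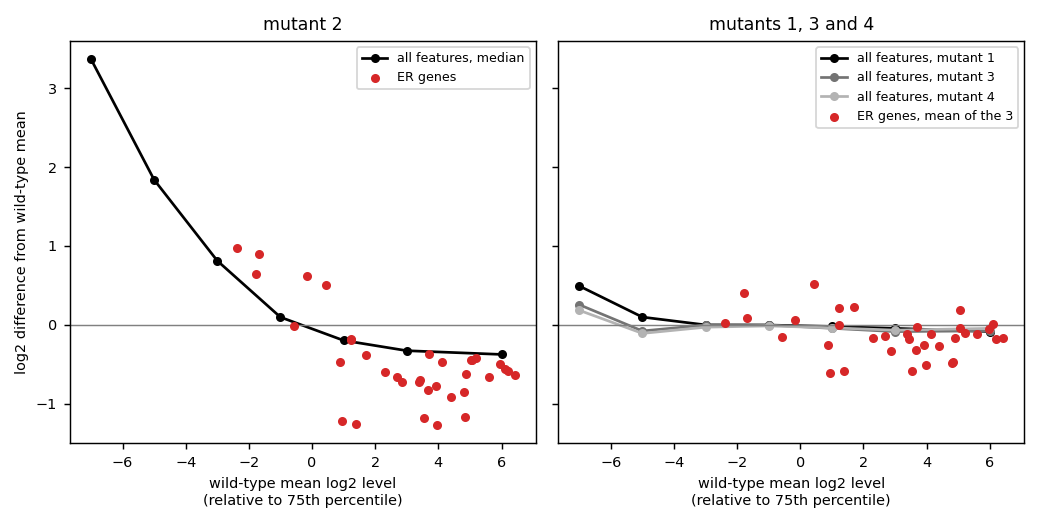
The horizontal axis is the mean wild-type log2 level (75th percentile at 0) and the vertical axis the log2 difference from the wild-type mean, with mutant 2 in one panel and mutants 1, 3 and 4 in the other. Lines join medians of all features in bins of level, and red points are the 35 ER genes (their mean over the 3 arrays in the second panel). The line of mutant 2 runs from above 0 for dim features to below 0 for bright ones, those of the other 3 stay closer to 0, and most red points lie below the lines at high levels.

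Chaperones and cochaperones made up 11 of the 27 members under 0, and 8 of the 14 whose genotypes did not overlap. All 11 were under 0, with a median log2 fold change of -0.38. The 8 of 11 without overlap stand against 15.2% of all features and 28.3% of the bright ones, and 8 had an unadjusted p under 0.05, as had 4933 of 19331 features. Calr was the 1 that was called, and without mutant pool 2 there were 5 (Calr, Creld2, Sdf2l1, Dnajb11 and Dnajb9), where 10.6% of all features were called lower. With fewer cells of a type, or less RNA per cell, a bulk array gives the same lower value, so these cannot be told apart here or in what follows.

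Calr encodes calreticulin, the soluble lectin chaperone that binds glycoproteins and calcium. Its probe (A_51_P416419, chr8:87732398-87732457 on mm8) read 4.87, 4.77, 4.81 and 4.79 in the wild-type pools and 4.25, 3.96, 4.22 and 4.51 in the mutant pools. The groups did not overlap, and Calr fell from 4.81 ± 0.04 to 4.23 ± 0.22 (SD, n = 4), a log2 fold change of -0.57 (SE 0.11, 1.49-fold, adjusted p = 0.0337). The call was kept without mutant pool 2 (-0.48, adjusted p = 0.0106) and without mutant pool 4 (-0.67, adjusted p = 0.0261), but was lost when any other array was left out, with adjusted p between 0.0793 and 0.108 for wild-type pools 1 to 4 and mutant pools 1 and 3. It was also lost with median centring (adjusted p = 0.511), normexp (0.52), no filter on dim probes (0.0824) and the mean of all probes (0.102), each with the same direction. These settings called, in the same order, 0.233%, 0.414%, 1.45% and 3.68% of all features, against 5.58% in the main fit. The leave-one-out fits that lost the call had 1.87% to 2.77%. With median centring Sox9 itself was not called (limma adjusted p = 0.11). A second Calr probe, A_52_P672212, gave -0.23 (adjusted p = 0.312).

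Canx, the membrane-bound counterpart calnexin, overlapped between genotypes. It read 5.08 to 5.47 in wild type and 4.78 to 5.15 in the mutant, a log2 fold change of -0.18 (adjusted p = 0.363) and of -0.10 without mutant pool 2.

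Sdf2l1, Creld2 and Manf, 3 smaller proteins of the group, had the same order of mutant pools. Sdf2l1, which joins the Hsp70 chaperone complex of the ER, read 3.92, 3.88, 3.93 and 4.16 in wild type and 3.27, 2.70, 3.45 and 3.68 in the mutant. Creld2, an ER protein induced by stress, read 4.85, 4.79, 4.82 and 4.94 in wild type and 4.27, 3.68, 4.37 and 4.51 in the mutant. Manf, a secreted ER stress protein, read 4.45, 4.31, 4.31 and 4.54 in wild type and 4.07, 3.49, 4.15 and 4.19 in the mutant. None of the 3 overlapped between genotypes, and mutant pool 2 was the lowest in each. Their log2 fold changes were -0.70 for Sdf2l1 (SE 0.20, adjusted p = 0.092), -0.64 for Creld2 (SE 0.17, adjusted p = 0.0777) and -0.43 for Manf (SE 0.16, adjusted p = 0.159), so none passed. Without mutant pool 2, Sdf2l1 (-0.51, adjusted p = 0.0270) and Creld2 (-0.47, adjusted p = 0.00858) did, and Manf (-0.26, adjusted p = 0.0547) missed the threshold.

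Of the DnaJ cochaperones, which drive the ATPase of BiP, Dnajb9 and Dnajb11 had little spread in wild type and Dnajc3 had more. Dnajb9 (ERdj4) read 0.90, 0.89, 0.87 and 0.84 in wild type and 0.57, 0.41, 0.70 and 0.61 in the mutant. Dnajb11 (ERdj3) read 3.87, 3.91, 3.91 and 3.996 in wild type and 3.62, 3.14, 3.65 and 3.74 in the mutant. Both lay lower in every mutant pool than in any wild-type pool, by -0.30 (SE 0.07, adjusted p = 0.063) and -0.38 (SE 0.13, adjusted p = 0.13). Without mutant pool 2 both were called, at -0.25 with adjusted p = 0.0234 for Dnajb9 and -0.25 with adjusted p = 0.0274 for Dnajb11. Dnajc3 (p58IPK) overlapped, from 2.38 to 2.84 in wild type and 2.01 to 2.55 in the mutant (-0.28, adjusted p = 0.305).

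Of the large chaperones none was called, and they differed in how far the genotypes were apart. Hyou1, a nucleotide exchange factor for BiP in the ER, read 3.51, 3.19, 3.41 and 4.02 in wild type and 2.79, 2.35, 2.96 and 3.11 in the mutant. Hsp90b1, which encodes GRP94, read 6.10, 6.13, 6.27 and 6.31 in wild type and 5.98, 5.62, 6.02 and 6.07 in the mutant. Hspa5, which encodes BiP, read 6.03, 6.26, 5.91 and 6.25 in wild type and 6.02, 5.55, 6.13 and 6.23 in the mutant. Hyou1 and Hsp90b1 were separated between genotypes, with log2 fold changes of -0.73 (SE 0.22, adjusted p = 0.102) and -0.28 (SE 0.11, adjusted p = 0.181). Without mutant pool 2 these were -0.58 (limma adjusted p = 0.0803) and -0.18 (limma adjusted p = 0.121). Hspa5 overlapped, at -0.13 (SE 0.16, adjusted p = 0.625) and at 0.02 (adjusted p = 0.928) without mutant pool 2. A dim second probe of Hyou1, A_52_P375076, had the opposite sign (1.40, adjusted p = 0.141; 0.90, adjusted p = 0.011 without mutant pool 2), and the mean of both probes gave 0.33.

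**Figure D3:**
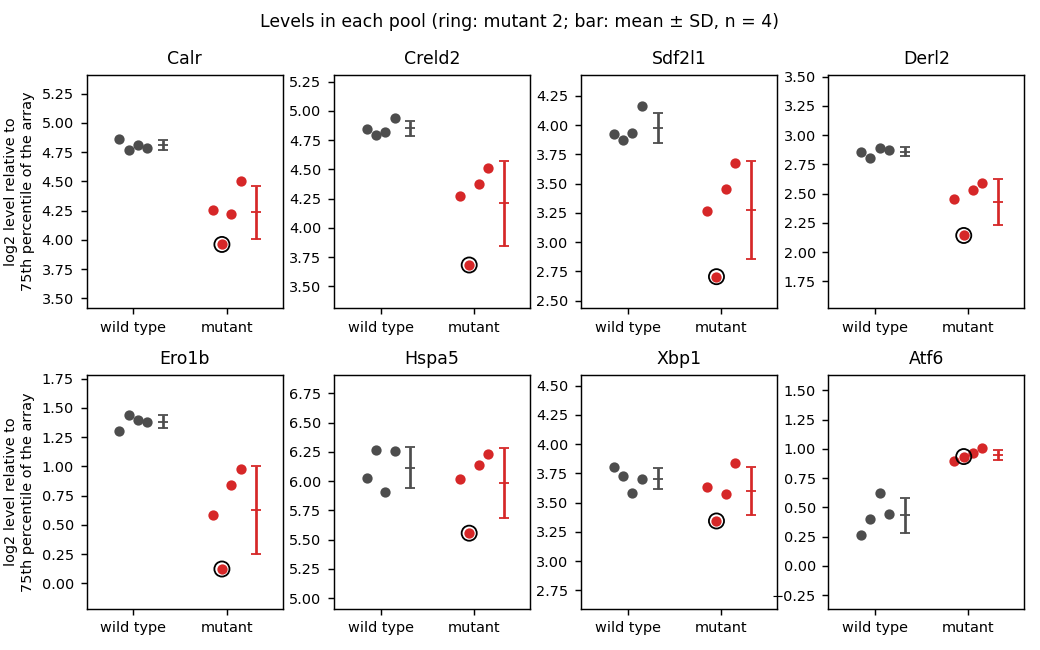
Points are single arrays, each a pool of 4 pancreata, for 8 members, the ring marks mutant pool 2 and bars give the mean ± SD of 4 pools. The vertical axis is the log2 level with the array's 75th percentile at 0, on its own range for each gene. Calr, Creld2, Sdf2l1, Ero1b and Derl2 have no overlap between genotypes, Atf6 is higher in all mutant arrays, and Hspa5 and Xbp1 overlap.

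Of the 6 disulfide enzymes limma called 0, with 2 at an unadjusted p under 0.05, and all 6 were under 0 with a median of -0.26. Ero1b, the ERO1 oxidase typical of pancreas, had the largest difference and was called without mutant pool 2 (-0.58, adjusted p = 0.0104). It read 1.31, 1.44, 1.40 and 1.37 in wild type and 0.58, 0.12, 0.84 and 0.98 in the mutant, with no overlap, a log2 fold change of -0.75 (SE 0.18, adjusted p = 0.0565). The broadly expressed oxidase Ero1a overlapped, at -0.12 (adjusted p = 0.34). Pdia4 read 3.47, 3.58, 3.61 and 4.03 in wild type and 3.23, 2.85, 3.37 and 3.47 in the mutant, separated by less than the rounding. Its log2 fold change was -0.44 (adjusted p = 0.166), and -0.32 without mutant pool 2. The other isomerases, Pdia3, P4hb and Pdia6, overlapped, with log2 fold changes of -0.27, -0.25 and -0.16. Another probe of Pdia6, A_51_P297968, gave -0.53 (adjusted p = 0.040 over all probes).

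ER-associated degradation showed lower values in the Derlin family, the membrane proteins of the retrotranslocation channel. Derl2 read 2.86, 2.81, 2.89 and 2.88 in wild type and 2.46, 2.14, 2.53 and 2.59 in the mutant. Derl3, a stress-induced Derlin, read 0.86, 0.94, 1.15 and 0.85 in wild type and -0.18, -0.27, 0.57 and 0.65 in the mutant. Derl1 read 2.18 to 2.38 in wild type and 1.72 to 2.22 in the mutant. Derl2 and Derl3 did not overlap between genotypes, while the highest Derl1 mutant pool lay above its lowest wild-type pool. In Derl3, mutant pools 1 and 2 were low together and pools 3 and 4 were nearer to wild type.

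No Derlin passed the test on all 8 arrays: Derl2 was at -0.43 (SE 0.10, adjusted p = 0.0583), Derl3 at -0.76 (SE 0.23, adjusted p = 0.105) and Derl1 at -0.27 (adjusted p = 0.2). Without mutant pool 2, Derl2 was called (-0.33, adjusted p = 0.0102) and Derl3 was not (-0.60, adjusted p = 0.0851). Derl1 was then at -0.16. The ubiquitin ligase Syvn1 (HRD1) was separated by less than the rounding, 4.08 to 4.22 in wild type and 3.65 to 4.08 in the mutant (-0.21, adjusted p = 0.242, and -0.12 without mutant pool 2). Its partner Sel1l overlapped (0.08, adjusted p = 0.789). Edem1, which directs misfolded glycoproteins to degradation, and Herpud1, a scaffold of the ligase, overlapped at -0.30 and -0.27. In the whole group of 7 limma called 0, with 2 at an unadjusted p under 0.05, and the median was -0.27.

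Both translocon subunits were under 0 without a call, 1 of them at an unadjusted p under 0.05. Sec61b read 6.39 to 6.45 in wild type and 5.79 to 6.31 in the mutant, with no overlap (-0.29, adjusted p = 0.185, and -0.17 without mutant pool 2). Sec61a1, the pore subunit, overlapped (-0.14, adjusted p = 0.516).

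The sensors and transcription factors did not share the lower values of the chaperones. Of 6, Atf6 was called higher, and 4 were above 0, with a median log2 fold change of 0.19, and of 0.061 without mutant pool 2. Atf6 (A_51_P129108, chr1:172544223-172544282 on mm8) read 0.26, 0.40, 0.63 and 0.44 in the wild-type pools and 0.90, 0.93, 0.96 and 1.003 in the mutant pools. Every mutant pool was above every wild-type pool, and mutant pool 2 was not apart from the others. It rose from 0.43 ± 0.15 to 0.95 ± 0.04 (SD, n = 4), a log2 fold change of 0.52 (SE 0.09, 1.43-fold, adjusted p = 0.0192). The call was kept without mutant pool 2 (adjusted p = 0.0115) and without wild-type pool 3 (adjusted p = 0.0286), and was lost without wild-type pools 1, 2 or 4 or mutant pools 1, 3 or 4, at adjusted p from 0.0528 to 0.0683. It was also lost with median centring (0.12, adjusted p = 0.833), normexp (adjusted p = 0.0642), no filter on dim probes (0.0547) and the mean of all probes (0.29, adjusted p = 0.0799), each with the same direction. Of all features these settings called 0.233%, 0.414%, 1.45% and 3.68%, against 5.58% in the main fit. The leave-one-out fits that lost the call had 1.87% to 2.77%. Sox9 was not called with median centring either. A second Atf6 probe, A_52_P464346, gave 0.07 (adjusted p = 0.629), so the 2 probes disagree in size.

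RNA of the other sensors was not called different in the main fit on all 8 arrays. Ern1, which encodes IRE1α, read -2.29, -2.39, -2.51 and -2.37 in wild type and -2.37, -1.42, -2.32 and -2.39 in the mutant. Eif2ak3, which encodes PERK, read 1.27, 1.18, 1.17 and 1.30 in wild type and 1.29, 1.03, 1.49 and 1.56 in the mutant. Its log2 fold change was 0.11 (limma adjusted p = 0.566), and 0.21 without mutant pool 2 (limma adjusted p = 0.105). Eif2ak3 was called higher with array weights (0.26, limma adjusted p = 0.0351), where 24.8% of all features were called. Its dim second probe was called higher without mutant pool 2 (0.79, limma adjusted p = 0.0292), where 16% of all probes were called. Ddit3, which encodes CHOP, read -1.73, -1.81, -1.55 and -1.68 in wild type and -1.71, -0.80, -1.42 and -1.67 in the mutant. In Ern1 and Ddit3 mutant pool 2 alone lay well above the rest, and their log2 fold changes went from 0.26 and 0.29 to 0.03 and 0.09 without it. Xbp1 read 3.58 to 3.81 in wild type and 3.34 to 3.84 in the mutant (-0.11, adjusted p = 0.553; -0.02 without mutant pool 2). Atf4 read 1.20 to 1.29 and 1.05 to 1.30 (-0.05, adjusted p = 0.692). The array gives 1 RNA level per gene and no splicing, phosphorylation or cleavage state, which are the steps at which these regulators act.

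The 3 targets of ATF4 and CHOP were above 0 without a call on all 8 arrays, 1 of them at an unadjusted p under 0.05. Trib3, a pseudokinase that dampens the response, read -1.89, -1.93, -1.69 and -1.57 in wild type and -1.77, -1.13, -1.10 and -1.22 in the mutant, where pools 2, 3 and 4 were high and pool 1 lay within the wild-type range. Its log2 fold change was 0.47 (SE 0.17, adjusted p = 0.145), and its second probe gave 0.48. The main probe was called higher without mutant pool 1. It was also called with array weights (0.53, limma adjusted p = 0.040), where 24.8% of all features were called. Without mutant pool 2 the main probe was not called (0.41, adjusted p = 0.147), while the second probe was (0.41, adjusted p = 0.0316). Ppp1r15a, the phosphatase subunit GADD34, and Asns, asparagine synthetase, overlapped at 0.20 and 0.03.

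**Figure D4:**
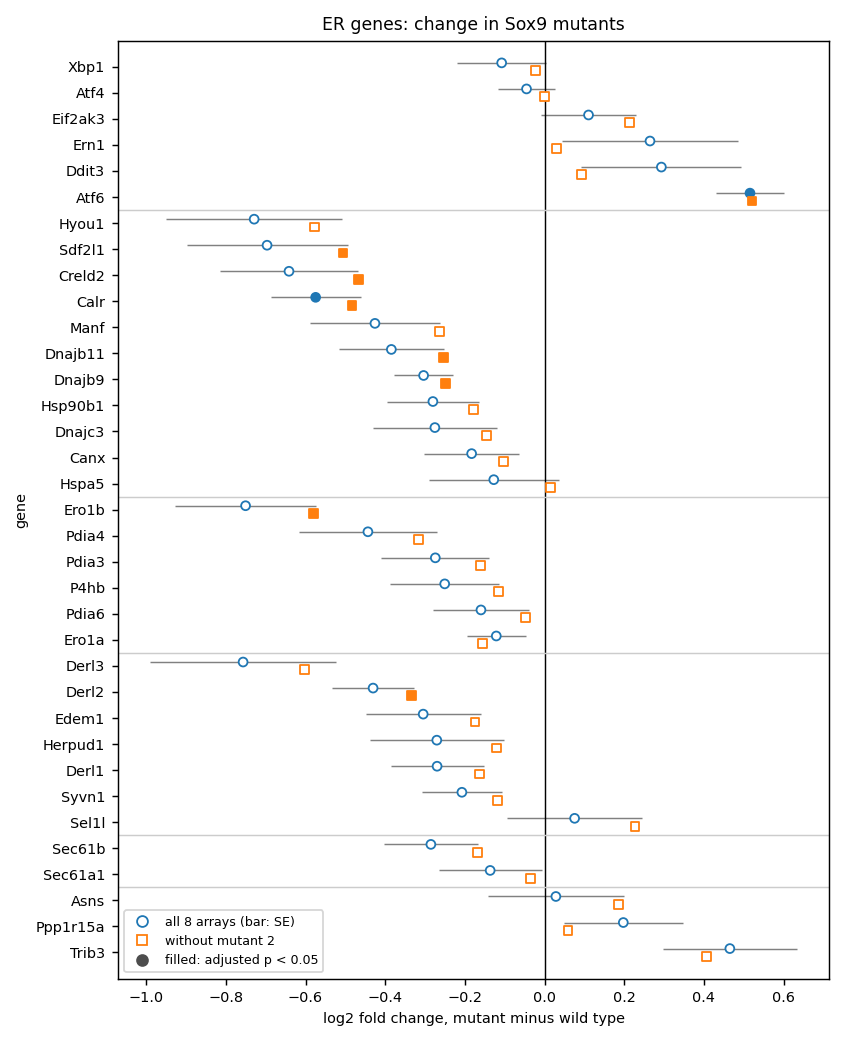
Points give the log2 fold change (mutant minus wild type) of each of the 35 genes on all 8 arrays, with the standard error of the limma fit, beside the value without mutant pool 2. Genes are grouped by role; the called members on all 8 arrays are Calr, lower, and Atf6, higher.

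Other probes of the members gave a check within the same RNA. Of 30 other probes for 18 members, 25 had the sign of the main probe, and 1 was called, against 3.84% of all 29462 probes. Without mutant pool 2 there were 6 called, against 16% of all probes. The 6 included probes of Hyou1 and Eif2ak3 above 0, both dim, with wild-type levels near -5. A Trib3 probe with a wild-type level of -3.56 was also above 0 (0.41, limma adjusted p = 0.0316). The others, of Pdia6, Dnajc3 and Derl2, were below 0.

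Grouped by promoter, all 10 members with an ER stress element were under 0. Their median log2 fold change was -0.28, 6 of the 10 had no overlap between genotypes, and Calr was called. Of the 20 members in the table without the element, 13 were under 0, the median was -0.19, and 6 had no overlap, all with the mutant lower and none called. The share without overlap and lower was 15.2% over all features and 28.3% over bright ones. Within the 10, Hspa5, Canx and Pdia6 had the smallest differences (-0.13 to -0.18), and Derl3, Ero1b and Creld2 the largest (-0.76 to -0.64). Members with the element were also the brighter ones, with a median wild-type level of 4.83 against 3.12, and mutant pool 2 read bright features low. Without that pool the medians were -0.16 and -0.12. Then 3 of the 10 and 4 of the 20 were called lower, where 10.6% of all features and 9.73% of bright ones were. Of 27 other genes with the element, 12 were tested, 9 of them under 0 with a median of -0.18. Over all features 50.7% were under 0, and over bright ones 81.7%. In 3 of the 12 every mutant pool lay below wild type, while in Pan2 and Zfp57 every mutant pool lay above it. Among the 12, Calr4, a dim gene related to Calr, was called lower (-2.17, adjusted p = 0.00456), where 3.46% of all features were called lower.

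**Figure D5:**
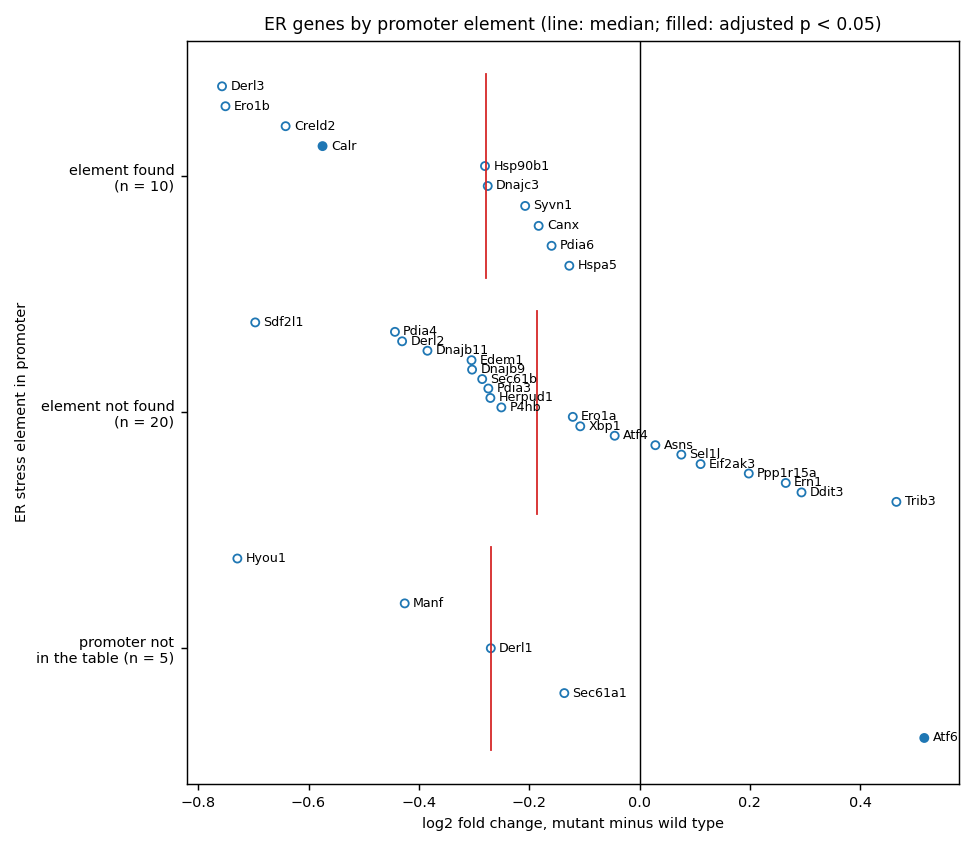
The horizontal axis is the log2 fold change (mutant minus wild type), and rows separate members whose promoter window holds the ER stress element, members whose window does not, and members without a promoter in the table. Red lines are medians; all 10 genes with the element lie left of 0.

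Other genes of the same pathways, from lists of related factors, had medians close to those of the members in folding and translocation. For comparison, 50.7% of all features were under 0, and 81.7% of features with a wild-type level of at least 2. Without mutant pool 2, 10.6% of all features and 9.73% of these bright ones were called lower. Of 22 other ER folding enzymes, 20 were under 0 with a median of -0.30, and Dnajc10, a disulfide reductase of the ER, fell from 2.40 to 1.91 (-0.50, adjusted p = 0.0462). Without mutant pool 2 there were 4 called lower, Dnajc10, Mogs, Txndc5 and Ganab. Of 28 genes of translocation and signal peptide processing, 27 were under 0 with a median of -0.27. Here limma called 0 on all 8 arrays (14 at an unadjusted p under 0.05), with Ssr3 (-0.46, adjusted p = 0.054) and Tram1 (-0.46, adjusted p = 0.0831) nearest. Without mutant pool 2 there were 5 called lower: Ssr3, Tram1, Srprb, Spcs1 and Spcs2. Of 18 other degradation factors, 16 were under 0 with a median of -0.16. Limma called 0 of them on all 8 arrays (7 at an unadjusted p under 0.05) and 0 without pool 2. Vcp, the ATPase that extracts substrates, was at -0.30 (adjusted p = 0.0966) and Ube2g2 at -0.21 (adjusted p = 0.162).

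The regulators outside the member list went both ways. Of 35 other genes of the integrated stress response, the median was -0.07, with 1 called higher and 1 lower, and 4 higher and 3 lower without mutant pool 2. Over all features 2.12% were called higher and 3.46% lower, and 6.76% higher and 10.6% lower without mutant pool 2. Atf3, a transcription factor induced by ATF4, read -1.80, -1.90, -1.83 and -0.85 in wild type and -0.51, -0.46, 0.40 and 0.16 in the mutant, and rose by 1.49 (SE 0.31, 2.81-fold, adjusted p = 0.0379). Shmt2, a mitochondrial enzyme of serine metabolism, fell by 0.38 (adjusted p = 0.0468). Of 18 other regulators of ER stress, with a median of -0.03, 2 of the same CREB3 family of membrane-bound transcription factors were called in opposite directions. Creb3l4 read 1.05, 0.80, 0.76 and 0.94 in wild type and -0.05, -0.58, -0.13 and -0.01 in the mutant, and fell by 1.08 (SE 0.14, 2.12-fold, adjusted p = 0.00925). Creb3l3 read -2.89, -2.61, -3.11 and -2.76 in wild type and -1.96, -1.15, -1.68 and -1.95 in the mutant, and rose by 1.16 (SE 0.20, 2.23-fold, adjusted p = 0.0221). Both kept their call and direction without mutant pool 2, when Atf6b, Wfs1 and Bhlha15 were also called lower (-0.24, -0.29 and -0.35).

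Cell type markers moved beside these values, and their part in them was not tested. Beside the counts of every marker list stand the shares over all features, 3.46% called lower and 2.12% higher. Without mutant pool 2 these shares were 10.6% and 6.76%. Of 19 acinar markers tested (of 21 listed), limma called 0 (3 at an unadjusted p under 0.05) and the median log2 fold change was -0.16, and 0.05 without mutant pool 2. Their summed level, the log2 of the sum of linear values over the list, was 10.4 to 10.7 in wild type and 9.96 to 10.7 in the mutant, and 10.3 to 10.7 without pool 2. Cpa1, a digestive carboxypeptidase, read 7.34 to 7.58 and 7.01 to 7.34 (-0.21, adjusted p = 0.212), and Ptf1a, the acinar transcription factor, was at -0.32 (adjusted p = 0.184). Bhlha15 (Mist1), an acinar regulator of secretory capacity, read 4.41, 4.54, 4.44 and 4.55 in wild type and 4.02, 3.57, 4.17 and 4.21 in the mutant. It did not overlap, was at -0.49 (adjusted p = 0.0938) on all 8 arrays and was called without mutant pool 2 (-0.35, adjusted p = 0.0181). Gp2, a zymogen granule protein, was above 0 (1.03, adjusted p = 0.0977).

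Of 17 endocrine markers 7 fell and none rose, with a median of -1.12; without mutant pool 2 there were 13 called lower and the median was -0.78. They included Neurog3, the endocrine progenitor factor (-1.89, adjusted p = 0.00214), and Isl1, Abcc8 and Pax6, and the summed level of the list was 7.89 to 8.24 in wild type and 6.37 to 7.74 in the mutant. Of 11 duct markers Sox9 and Spp1 fell and Onecut1 rose, and without mutant pool 2 Cftr (1.46) and Krt19 (0.47) were also called higher and Car2 (-0.99) lower, with a summed level of 6.47 to 6.61 in wild type and 5.71 to 6.02 in the mutant. Of 8 epithelial markers limma called 0 (2 at an unadjusted p under 0.05), with Cldn3 at -0.28 and Krt18 at 0.31. Both Krt18 (0.41, adjusted p = 0.0321) and Krt8 (0.31, adjusted p = 0.0127) were called higher without mutant pool 2. Cdh1 (-0.015) and Krt8 (0.21), which define the labelled tissue, were well above background on all 8 arrays, and the list's summed level was 7.40 to 7.51 in wild type and 7.39 to 7.84 in the mutant. Mesenchymal RNA was present too: Col1a1 was well above background on all arrays and overlapped between genotypes (-0.09), and of 13 mesenchymal markers Nkx3-2 and Barx1 rose, and without mutant pool 2 Des was also called higher (0.23) and Lum lower (-0.36), with a summed level of 8.60 to 8.85 in wild type and 8.27 to 8.66 in the mutant.

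Of 9 neuronal and Schwann markers 3 fell (Sox10, S100b and Elavl4), with a summed level of 2.57 to 3.17 and 1.62 to 2.36. Of 8 erythroid markers Hbb-y and Hba-x rose, and Epb42 was called lower (-1.26) without mutant pool 2, with a summed level of 4.97 to 5.83 and 3.04 to 5.53. The plasma cell list, a cell type rich in ER, had 4 of 5 genes tested and 2 that fell, Ighm (-1.03, adjusted p = 0.00846) and Pou2af1 (-1.34, adjusted p = 0.034), with a summed level of 2.41 to 2.56 and 2.13 to 2.35. Of 8 endothelial markers limma called 0 (0 at an unadjusted p under 0.05), with Esam at 0.18 and Eng at 0.12, and of 9 immune markers 0 (2 at an unadjusted p under 0.05), with Csf1r at -0.36 and Lyz2 at -0.38. Among the immune markers Itgam was called higher (0.80) without mutant pool 2. Their summed levels in wild type and mutant were 4.35 to 4.50 and 4.27 to 4.56 for endothelium and 4.48 to 4.87 and 4.11 to 4.58 for immune cells.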

How the data were processed

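Total RNA (about 250 ng a pool) was labelled with Cy3 and hybridised to one-colour Agilent arrays, per the labels. Per the file headers, each deposited scanner file is Feature Extraction 9.5.3.1 output, whose processed signal is an intensity with background subtracted and no normalization between arrays. The deposited series table, also an intensity, has unstated processing (the submitters' processing notes name limma) and was used only as an alternative.

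Control and outlier spots were left out, log2 processed signals were averaged per probe, and each array's 75th percentile was subtracted. Probes well above background on at least 4 of 8 arrays were kept (29462 of 41174), and the brightest probe of each gene was tested. Names came from RefSeq (GRCm38.p6): 24490 probes matched by accession, 6234 by symbol, 2391 by synonym and 8059 not at all. Probe coordinates are the files' (mm8), and positions within exons or UTRs were not used here. Genotype was fitted with limma 3.58.1 in R 4.3.3 (lmFit, eBayes, two-sided), adjusted by Benjamini-Hochberg over all features and tested on simulated data. The number of arrays limits the precision.

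The members, lists and tests were chosen with earlier results of these data known. The genes named are Sox9, every member, up to 4 called genes of each list or the 2 with the smallest p where none was called, and Cpa1, Ptf1a, Cdh1, Krt8, Col1a1 and Neurog3. Calr4 and the genes called only without mutant pool 2 were named after their values were seen. Replicate numbers did not pair pools (correlations of same-numbered pools -0.02 to 0.13). Alternatives changed the centring, background correction, filter, probe rule, array weights and source, and left out each array.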

Additional observations from a re-analysis of the deposited data

Results flagged for a closer look

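Of 72 groups of 4 pools checked for a pool far from the rest, 2 had one, where chance flags about 1 in 20, and both were mutant pool 2. For Dnajc3 this pool read 2.01, below the other mutant pools at 2.49 to 2.55. For Ern1 it read -1.42, above the others at -2.39 to -2.32.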

How the results depend on the processing

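Against 1 member called lower and 1 higher, with a median log2 fold change of -0.27, the counts were 0 and 0 with arrays centred on the median (members' median -0.67, all features -0.40), with normexp (-0.16), with no filter, with the mean of all probes (-0.20) and with the replicate block (adjusted p = 0.098 for Calr and 0.0779 for Atf6). They were 2 lower with quantile normalization (-0.13), 3 lower with the filter at all 8 arrays, 9 lower and 3 higher with array weights (-0.13), and 6 lower with the deposited series table (-0.14). Leaving out 1 array gave 0 to 7 lower, 0 to 1 higher and medians of -0.32 to -0.15. The 7 lower and the -0.15 came without mutant pool 2, the 1 lower without mutant pool 4. Of all features, 17.4% were called without mutant pool 2, and 1.87% to 2.77% without any other array. Second probes called went from 1 to 6 without mutant pool 2. Normexp could not be fitted well to wild-type array 3, whose lower quartile was 10.4 against 6.40 to 6.68 on the other arrays except mutant array 2 (8.82).

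These were added after seeing the data. With mutant array 2 left out, the counts were 7 lower with median centring (median -0.18), 7 lower with quantile normalization (-0.091), 4 lower with the replicate block (-0.13), and 0 lower and 0 higher with normexp (-0.037, above the -0.13 of all features, so that the members' direction relative to all features turned). Normexp without wild-type array 3 gave 0 lower (1.43% of all features called), and without both arrays 6 lower (-0.14, 11.7% called). In the fits without mutant array 2 alone, that share was 17.7% with median centring and 18.2% with quantile normalization. It was 9.56% with the replicate block and 0.295% with normexp. No member called on all 8 arrays changed sign, and where a cause is not named it was not tested. All members were well above background on every array. Whether the higher background of mutant array 2 changed the values of dim members was not tested. Replicates are pools, and slide and genotype cannot be told apart.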
